A study of Mus musculus with 12 samples.

Results

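Hgf, the gene of hepatocyte growth factor, was lower in every Foxf1+/- lung than in every wildtype lung by its brightest probe, 1.53-fold on average. The genes of its receptor (Met), of 2 proteases that activate it (Hgfac, St14) and of the 2 inhibitors of those proteases (Spint1, Spint2) gave no call in either direction. These 6 genes were followed through every probe whose symbol in the array annotation is 1 of their names, which gave 12 of the 45263 intact probes and 6 of the 19057 genes on the array. Hgf and St14 had 3 probes each, Spint1 and Spint2 had 2, and Met and Hgfac had 1. All 12 probes passed the filter on dim signal and were tested.

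RNA from whole lungs of 6 Foxf1+/- mice and 6 wildtype littermates, taken at postnatal day 0.5, was hybridised to 12 Illumina bead arrays, 1 lung per array. Foxf1+/- mice carry 1 Foxf1 allele from which the part that codes for the forkhead DNA-binding domain was deleted, on a mixed 129/C57BL6/J background that the wildtype littermates share. The line came from floxed mice bred to EIIa-Cre, a transgene that is active in the early embryo rather than in a single lung cell type, and whether the lungs profiled still carried the transgene is not given in the sources used here. Signal is given as log2 of background-corrected, quantile-normalised intensity, where a difference of 1 is a doubling, and a probe was called at a Benjamini-Hochberg adjusted p under 0.05 in a limma fit across 33947 probes with genotype and array experiment as terms.

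HGF is secreted as an inactive single chain, mainly by mesenchymal cells, and binds heparan sulfate in the matrix. Serine proteases, among them HGF activator (Hgfac, made mostly by liver) and the epithelial membrane protease matriptase (St14), cut it into the active form, which binds the receptor tyrosine kinase Met on epithelial and endothelial cells. HAI-1 (Spint1) and HAI-2 (Spint2) are Kunitz-type inhibitors in the epithelial membrane that block those proteases. In lung the pathway is known for growth, branching and repair of the epithelium and for growth of blood vessels, and Foxf1 is a forkhead transcription factor of lung mesenchyme and endothelium.

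In the mouse genome (GRCm38, RefSeq annotation) the 6 genes lie at chr5:16553495-16619439 (Hgf), chr6:17463349-17573980 (Met), chr5:35041509-35048461 (Hgfac), chr9:31088590-31131811 (St14), chr2:119237360-119249535 (Spint1) and chr7:29256330-29282059 (Spint2). Hgf was picked for display with its result known. The 250 bases before each of its 2 RefSeq starts are shown (RefSeq, GRCm38.p6, plus strand), with matches to the forkhead core TAAACA in capitals.
Hgf start 1, chr5:16553245-16553494: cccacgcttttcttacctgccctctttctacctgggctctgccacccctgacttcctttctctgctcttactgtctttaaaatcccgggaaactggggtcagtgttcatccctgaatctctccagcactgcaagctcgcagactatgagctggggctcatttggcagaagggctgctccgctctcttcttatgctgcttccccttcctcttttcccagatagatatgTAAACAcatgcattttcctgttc
Hgf start 2, chr5:16553651-16553900: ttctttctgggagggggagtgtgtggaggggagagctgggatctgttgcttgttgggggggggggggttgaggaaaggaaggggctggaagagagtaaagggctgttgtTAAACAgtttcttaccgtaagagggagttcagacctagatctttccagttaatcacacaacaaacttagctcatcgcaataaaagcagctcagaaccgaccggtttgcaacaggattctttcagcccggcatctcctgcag
The core was searched on both strands (TAAACA or TGTTTA) and was found once in each window, beginning 23 bases before the first start and 141 bases before the second. In the first window it is part of the longer GTAAACA (or TGTTTAC), a motif that overlaps the core. Of 32851 windows of the same length, 12.03% held the core and 3.17% held the longer motif. The windows of Met, Hgfac, Spint1 and Spint2, 1 each, held no match, as is so for most windows, and St14 had no window. The matches shown are of letters, not measured binding sites, and whether Foxf1 acts on Hgf was not tested.

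Foxf1 itself was measured by its probe at 11.56 ± 0.38 (SD, n = 6) in wildtype and 10.83 ± 0.55 (SD, n = 6) in Foxf1+/- lungs, a log2 fold change of -0.999 ± 0.13 (SE; limma adjusted p = 0.00224), and the genotypes did not overlap within either array experiment. Where this probe lies relative to the deleted part was not determined here. The 2 array experiments that the study corrected for are not named in the labels and were inferred from the raw signal. Experiment A held 2 wildtype (replicates 1 and 2) and 4 Foxf1+/- arrays (replicates 1 to 4), whose raw medians were 72.8 to 89.3. Experiment B held 4 wildtype (replicates 3 to 6) and 2 Foxf1+/- arrays (replicates 5 and 6), whose raw medians were 57.3 to 62.6. Over all probes, 1007 of 33947 were called (2.97%), of which 415 were lower (1.22%) and 592 higher (1.74%) in Foxf1+/- lungs. By the brightest probe of each gene, 565 of 15653 genes were called (3.61%), 280 lower (1.79%) and 285 higher (1.82%). With 12 arrays, it is their number that sets how precise each value is.

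Against that background of 2.97%, 1 of the 12 member probes was called, lower in Foxf1+/- lungs (1.22% over all probes), and none was called higher (1.74%). An unadjusted limma p under 0.05 was found for 3, the brightest and second Hgf probes and the third St14 probe. No share over all probes or genes is given for counts at an unadjusted p, here or below, so they are description only. By gene, 1 of 6 was called, lower (1.79% over all genes). The median log2 fold change of the 6 genes was -0.08, and that of all genes tested was -0.01. 4 of the 12 probes had a mean log2 signal under 6.56, a limit set 0.5 over the 5th percentile of the means of genes (6.06), and are written of below as near the floor of the arrays, where a fold change is understated.

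The ligand carried the difference. The brightest Hgf probe, at the 64.5th percentile of all intact probes, measured 7.43 and 7.33 in the wildtype lungs of experiment A and 7.57, 7.53, 7.51 and 7.37 in those of experiment B. In Foxf1+/- lungs it measured 6.63, 6.49, 6.65 and 6.98 in experiment A and 6.88 and 7.03 in experiment B. The highest Foxf1+/- lung lay below the lowest wildtype lung, also across experiments, and the Foxf1+/- lungs were spread more widely than the wildtype lungs. The means were 7.46 ± 0.096 (SD, n = 6) in wildtype and 6.78 ± 0.22 (SD, n = 6) in Foxf1+/- lungs.

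The fitted log2 fold change of this Hgf probe was -0.62 ± 0.084 (SE; 95% interval -0.80 to -0.44; limma adjusted p = 0.00257). An exact permutation of genotype within experiments, two-sided, gave p = 0.0044, the smallest that its 225 arrangements allow. Genotypes of this probe overlapped in neither experiment, which held for 765 probes with a lower signal in Foxf1+/- lungs (2.25% of those tested) and for 1022 with a higher signal (3.01%). Within experiments the log2 fold change was -0.69 in A (limma adjusted p = 0.211) and -0.54 in B (limma adjusted p = 0.0963), neither of which passed the threshold alone. The difference between experiments was 0.15, with an adjusted p of 0.999 in the limma interaction fit. The call was kept when each of the 12 arrays was left out in turn, with log2 fold changes of -0.68 to -0.57.

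**Figure D1:**
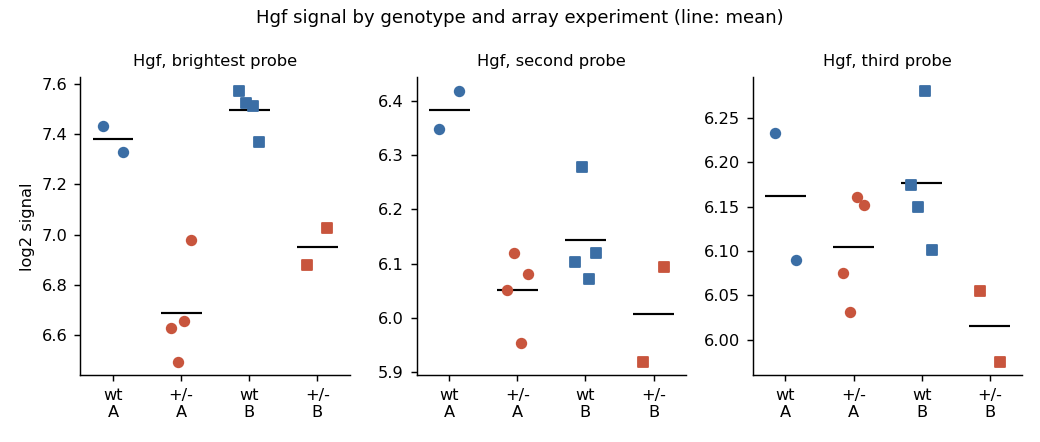
Log2 signal (y axis) of the 3 Hgf probes in each of the 12 arrays, by genotype (wt, wildtype, blue; +/-, Foxf1+/-, red) and array experiment (A, circles; B, squares), with a line at each mean and a separate scale per probe. For the brightest probe all Foxf1+/- lungs (6.49 to 7.03) sit below all wildtype lungs (7.33 to 7.57), while the other probes lie near the floor of the arrays, between 5.92 and 6.42.

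The other Hgf probes were near the floor. The second measured 6.35 and 6.42 in wildtype against 6.05, 6.12, 5.95 and 6.08 in Foxf1+/- lungs of experiment A, and 6.10, 6.28, 6.07 and 6.12 against 5.92 and 6.09 in experiment B. Genotypes were apart in experiment A and overlapped in experiment B. Its log2 fold change was -0.24 ± 0.063 (SE; 95% interval -0.37 to -0.098) and was not called (limma adjusted p = 0.0701). The third measured 6.09 to 6.28 in wildtype and 5.98 to 6.16 in Foxf1+/- lungs, with a log2 fold change of -0.11 ± 0.054 (SE; limma adjusted p = 0.347). All 3 probes thus had a negative log2 fold change and 1 was called, but no direction is read from those near the floor. With the mean of the 3 standing for the gene, probes near the floor included, the log2 fold change of Hgf was -0.32 (limma adjusted p = 0.00447). In the array annotation, the brightest and the second are tied to cDNA clone records, and the third to the RefSeq transcript of Hgf.

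How far the Hgf probes followed each other was described by Pearson's r over the 12 arrays. After the mean of each experiment was taken out, r was 0.79 between the brightest and the second, 0.67 between the brightest and the third and 0.18 between the second and the third. With the mean of each genotype within each experiment taken out as well, the same values were 0.11, 0.47 and -0.61. What the brightest and the second shared was thus mostly the difference between genotypes. All 12 arrays enter each r, and the values share normalisation and the floor of the arrays.

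The receptor did not differ by a detectable amount. Met, measured by 1 probe, gave 7.65 and 7.32 in wildtype against 7.35, 7.48, 7.62 and 7.50 in Foxf1+/- lungs of experiment A, and 7.41, 7.35, 6.91 and 7.14 against 7.29 and 7.15 in experiment B. The genotypes overlapped in both experiments. Its log2 fold change was 0.01 ± 0.097 (SE; 95% interval -0.20 to 0.22; limma adjusted p = 0.974), and the sign changed with the settings. Its interval did not reach the value of -0.62 fitted for Hgf.

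Of the activating proteases, Hgfac (HGF activator) was measured by 1 probe at 6.84 to 7.33 in wildtype and 6.74 to 7.26 in Foxf1+/- lungs. By array it gave 6.85 and 7.02 in wildtype against 6.77, 6.85, 7.26 and 6.89 in Foxf1+/- lungs of experiment A, and 6.89, 6.84, 7.33 and 7.04 against 6.79 and 6.74 in experiment B. In experiment B both Foxf1+/- lungs lay below all wildtype lungs, and in experiment A the genotypes overlapped. The log2 fold change was -0.13 ± 0.11 (SE; 95% interval -0.36 to 0.11; limma adjusted p = 0.647).

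Wildtype replicate 5 and Foxf1+/- replicate 3, with the highest Hgfac signal of their genotypes, also had the highest summed signal of the liver markers in theirs (11.59 and 12.57 as log2 of the sum, against 10.06 to 11.32 in the other lungs). Of 9 liver markers, 7 were tested, none was called (1 had an unadjusted p under 0.05), the summed linear signal was 1069 to 3077 in wildtype and 1132 to 6063 in Foxf1+/- lungs, and the defining markers Alb, Serpina1a and Fgb were near the floor. Over the 12 arrays, with experiment means taken out, r of Hgfac was 0.65 with the liver sum and 0.80 with the macrophage sum. The part of these cells in the Hgfac signal was not tested.

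St14 (matriptase) gave different pictures by probe. The brightest measured 9.83 and 9.84 in wildtype against 10.12, 9.78, 9.85 and 9.58 in Foxf1+/- lungs of experiment A, and 9.14, 8.998, 8.97 and 9.35 against 9.34 and 9.13 in experiment B, with overlap in both. Its log2 fold change was 0.06 ± 0.0997 (SE; 95% interval -0.16 to 0.28; limma adjusted p = 0.840). The second measured 7.37 to 7.71 in experiment A and 7.96 to 8.43 in experiment B, so that the experiments differed in the opposite direction to the brightest probe, and its log2 fold change was -0.13 ± 0.082 (SE; limma adjusted p = 0.482).

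The third St14 probe, near the floor, measured 6.27 and 6.35 in wildtype against 6.05, 6.13, 6.20 and 6.16 in Foxf1+/- lungs of experiment A, and 6.21, 6.08, 6.15 and 6.09 against 5.99 and 6.06 in experiment B. Its genotypes overlapped in neither experiment, as for 2.25% of probes in this direction, and the exact permutation within experiments gave p = 0.0044, but its log2 fold change of -0.14 ± 0.049 (SE) was not called across all probes (limma adjusted p = 0.158). Between the St14 probes r over the 12 arrays, experiment means taken out, was 0.11, -0.38 and 0.46 for the brightest and the second, the brightest and the third, and the second and the third. The St14 probes therefore did not rank the lungs alike.

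**Figure D2:**
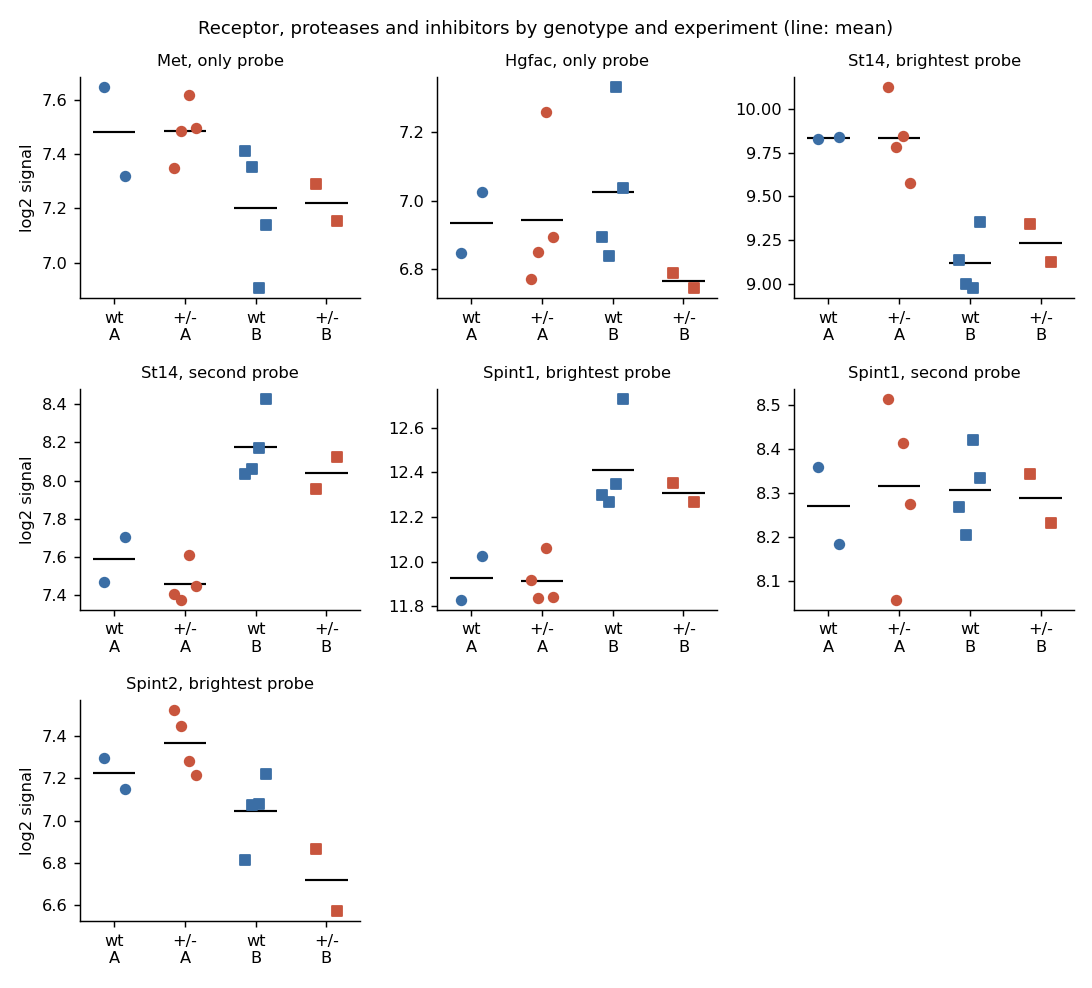
Log2 signal (y axis, its own scale per panel) of the 7 probes of Met, Hgfac, St14, Spint1 and Spint2 above the floor of the arrays, by genotype (wt, wildtype, blue; +/-, Foxf1+/-, red) and array experiment (A, circles; B, squares), with a line at each mean. Points of the genotypes overlap in at least 1 experiment in every panel, and experiment A lies above experiment B for the brightest St14 probe and below it for the second.

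The inhibitors gave no call. The brightest Spint1 (HAI-1) probe, at the 97.9th percentile of all intact probes, measured 11.83 and 12.02 in wildtype against 11.92, 11.84, 12.06 and 11.84 in Foxf1+/- lungs of experiment A, and 12.30, 12.27, 12.35 and 12.73 against 12.35 and 12.27 in experiment B. Wildtype replicate 6 stood highest and genotypes overlapped in both experiments. The log2 fold change was -0.06 ± 0.087 (SE; 95% interval -0.25 to 0.13; limma adjusted p = 0.820). The second Spint1 probe measured 8.18 to 8.42 in wildtype and 8.06 to 8.51 in Foxf1+/- lungs, a log2 fold change of 0.01 ± 0.081 (SE; limma adjusted p = 0.964), and r between the probes was 0.26.

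The brightest Spint2 (HAI-2) probe measured 7.30 and 7.15 in wildtype against 7.52, 7.45, 7.29 and 7.21 in Foxf1+/- lungs of experiment A, and 6.81, 7.07, 7.08 and 7.22 against 6.86 and 6.57 in experiment B. The log2 fold change was 0.14 in experiment A (limma adjusted p = 0.791) and -0.33 in experiment B (limma adjusted p = 0.380), and the difference of -0.47 between experiments had an adjusted p of 0.999 in the limma interaction fit and an unadjusted p under 0.05. Over both it was -0.09 ± 0.11 (SE; 95% interval -0.33 to 0.15; limma adjusted p = 0.752). The second Spint2 probe, near the floor, gave 0.04 ± 0.054 (SE; limma adjusted p = 0.782), and r between the probes was -0.04.

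**Figure D3:**
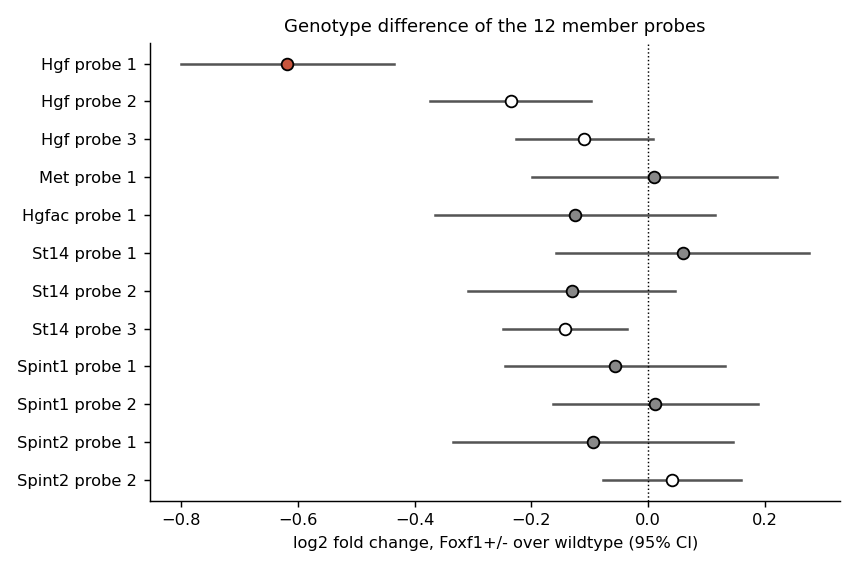
Log2 fold change of Foxf1+/- over wildtype (x axis) with its 95% interval for the 12 probes of the 6 genes, numbered from the brightest probe of each gene (red, called; grey, not called; white, near the floor and not called). The interval of Hgf probe 1 runs from -0.80 to -0.44. Those of Hgf probe 2 (-0.37 to -0.098) and St14 probe 3 (-0.25 to -0.036), both near the floor and not called, also exclude 0. All other intervals include 0.

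The other genes of the pathway were taken from lists by role, with the brightest probe standing for a gene, beside 1.82% of all genes called higher and 1.79% called lower, and a median log2 fold change of -0.01 over all genes tested. Of the sister pair of ligand and receptor, MSP (Mst1) and Ron (Mst1r), neither was called, also at an unadjusted p under 0.05 (median -0.13), and Mst1r had the smaller adjusted p (log2 fold change -0.17 ± 0.081 SE, limma adjusted p = 0.317). Of 11 tested proteases that can activate HGF or act with matriptase, none was called (before adjustment, p was under 0.05 for 1 that was higher and 1 that was lower; median log2 fold change -0.05), and hepsin (Hpn) had the smallest adjusted p (log2 fold change -0.34 ± 0.11 SE, limma adjusted p = 0.135). The plasma proteases F11, F12, F2 and Klkb1 were near the floor. Of 4 tested further protease inhibitors, none was called, also at an unadjusted p under 0.05, with a median of 0.04. Serpinf2, the inhibitor of plasmin, had the smallest adjusted p (log2 fold change 0.37 ± 0.24 SE, limma adjusted p = 0.503).

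Of 11 Met co-receptors, among them Cd44, neuropilins, plexins and integrin subunits, none was called (before adjustment, p was under 0.05 for 1 higher and 1 lower gene; median log2 fold change -0.03). Itgb4, the integrin subunit of hemidesmosomes, had the smallest adjusted p at a log2 fold change of -0.27 ± 0.097 (SE; limma adjusted p = 0.171). Of 19 tested adaptors and signalling genes downstream of Met, 2 were called higher and none lower, with a median of 0.07. Rapgef1, an exchange factor recruited through Crk proteins, rose by 0.38 ± 0.080 (SE; limma adjusted p = 0.0275), and Stat3, a transcription factor activated by Met and by many cytokine receptors, rose by 0.32 ± 0.070 (SE; limma adjusted p = 0.0299).

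With each array left out in turn, the log2 fold change ran from 0.35 to 0.42 for Rapgef1 and from 0.25 to 0.36 for Stat3. Called higher were 2 of 5 tested Rapgef1 probes and 2 of 3 tested Stat3 probes. Both calls by the brightest probe lay near the threshold and were lost without any of several arrays. That of Rapgef1 ended when wildtype replicate 1 or 2 or Foxf1+/- replicate 3, 5 or 6 was left out (limma adjusted p from 0.0505 to 0.0989), and that of Stat3 without wildtype replicate 1, 2, 4 or 6 or Foxf1+/- replicate 5 or 6 (limma adjusted p from 0.0503 to 0.105). Without array experiment in the fit Stat3 gave 0.12 (limma adjusted p = 0.799). Of Shc1 and Ptpn11 (Shp2), which carry the signal from the receptor to Ras, the brightest probes were not called (log2 fold changes 0.16 and 0.11), although 1 of 3 Shc1 probes and 2 of 3 Ptpn11 probes were called higher. These were named after their values were seen.

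Of 12 tested negative regulators of Met, among them Cbl, phosphatases, Lrig1 and the Sprouty gene Spry4, 1 was called lower and none higher, with a median of 0.06. This was Ptprb (VE-PTP), a phosphatase that in lung is known from endothelium, which fell by 0.70 on the log2 scale (SE 0.12; limma adjusted p = 0.0105), from 10.5 ± 0.33 (SD, n = 6) to 9.87 ± 0.21 (SD, n = 6). It kept its call without each array in turn, and lost it without array experiment in the fit (-0.59, limma adjusted p = 0.0702) and within experiment A (-0.76, 0.183) or B (-0.65, 0.230). Of the endothelial markers, 10 in all, 1 was called higher (Emcn, 0.56) and 2 lower (Cldn5, -1.05, and Vwf, -0.44), with a median log2 fold change of -0.17. Leaving out single arrays ended the calls of Emcn and Vwf but not that of Cldn5. The summed linear signal of these markers was 44416 to 54205 in wildtype and 34774 to 52287 in Foxf1+/- lungs, and Kdr and Erg were near the floor. The part of endothelium in the Ptprb difference was not tested.

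Of 13 tested genes known to respond to HGF in cultured cells, 2 were called higher and none lower (before adjustment, p was under 0.05 for 4 higher and 3 lower genes; median -0.05). Myc, a growth regulator, rose by 0.49 ± 0.089 (SE; limma adjusted p = 0.0125) from a wildtype mean of 6.37, near the floor, and leaving out wildtype replicate 1 or Foxf1+/- replicate 6 ended its call (limma adjusted p = 0.0600 and 0.0506). Timp1, an inhibitor of metalloproteinases, rose by 0.56 ± 0.12 (SE; limma adjusted p = 0.0309), and its call ended when wildtype replicate 1, 2, 3, 4 or 6 or Foxf1+/- replicate 3 or 6 was left out (limma adjusted p from 0.0521 to 0.128). These genes also respond to many other signals. The called ones moved opposite to Hgf, the others moved both ways, and the part of Hgf in their values was not tested.

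Of 8 heparan sulfate carriers, which can hold HGF in the matrix or present it at the cell surface, 1 was called higher and 1 lower (median -0.11). Hspg2 (perlecan), of basement membranes, rose by 0.60 ± 0.11 (SE; limma adjusted p = 0.0140), a call lost without Foxf1+/- replicate 6 (limma adjusted p = 0.0624). Sdc3 (syndecan-3) fell by 0.32 on the log2 scale (SE 0.069; limma adjusted p = 0.0284), a call that ended when wildtype replicate 2, 3 or 4 or Foxf1+/- replicate 5 or 6 was left out (limma adjusted p from 0.0508 to 0.112). By probe, 2 of 2 tested for Hspg2 and 1 of 2 for Sdc3 were called in the direction given.

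**Figure D4:**
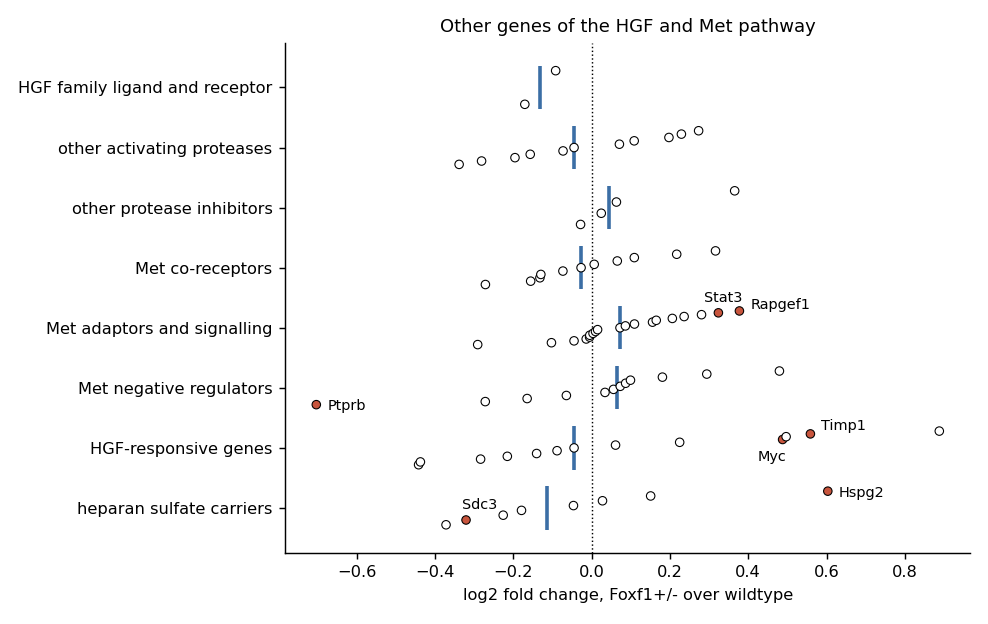
Log2 fold change of Foxf1+/- over wildtype (x axis) of the other genes of the HGF and Met pathway by list (y axis, 1 point per gene, brightest probe), with called genes filled red and named and a blue bar at the median of each list. The 7 called genes run from Ptprb at -0.70 to Hspg2 at 0.60, and the medians lie between -0.13 and 0.07.

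In whole lung, fewer cells of a type and less RNA per cell cannot be told apart, and markers of several cell types were therefore followed beside Hgf. Of the markers of mesenchyme, the tissue that makes most HGF, 13 were tested and had a median log2 fold change of -0.08. Called higher were 2 (Col3a1, 0.62, and Pdgfra, 0.46) and lower 1 (Fgf10, -0.46), and each of these calls ended without some single arrays. By probe, 1 of 2 tested for Col3a1, 1 of 2 for Pdgfra and 1 of 3 for Fgf10 were called in the direction given. Gli1 was near the floor, and the summed linear signal was 27831 to 41672 in wildtype and 30638 to 43162 in Foxf1+/- lungs. With that sum as a covariate the log2 fold change of Hgf was -0.61 (limma adjusted p = 0.00120). The sum weighs its brightest markers most, and its called markers went both ways. This fit therefore cannot separate the number of mesenchymal cells from their RNA, and their part in the Hgf difference was not tested. Of the epithelial markers, where Met, matriptase and the inhibitors are known to lie, 17 were tested and had a median of 0.02. Called higher were 2 (Krt19, 0.61, and Cldn4, 0.65), whose calls also ended without some single arrays, and none was called lower. Epcam was near the floor, and the sum was 99307 to 112853 against 93477 to 118987. Of 6 tested macrophage markers none was called (none either at an unadjusted p under 0.05), Marco and Cd163 were near the floor, and the sum was 13847 to 21386 against 11820 to 18854.

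The summed signals of mast cell and erythroid markers were set apart by genotype. Of 8 mast cell markers 6 were called higher (median 2.28), among them the proteases Tpsb2, Cma1 and Tpsab1, while Ms4a2 was near the floor. Their summed linear signal was 4671 to 6562 in wildtype and 8025 to 12620 in Foxf1+/- lungs, with no overlap. With that sum as a covariate Hgf gave a log2 fold change of -0.98 and was not called (limma adjusted p = 0.166). Since the sum was set apart by genotype, this fit cannot well separate the sum from genotype. Of 7 erythroid markers listed, 3 were on the array and tested. Hba-a1, the brightest of them, reached the same maximum of 15.32 in both genotypes. None of the 3 was called, and 2 that were lower had an unadjusted limma p under 0.05. The erythroid sum was 53034 to 60579 in wildtype against 37495 to 51145 in Foxf1+/- lungs, again with no overlap. With it as a covariate Hgf gave -0.87 (limma adjusted p = 0.000707), with the same limit. Over the 12 arrays r of Hgf was 0.43 with the erythroid sum and -0.80 with the mast cell sum, experiment means taken out. With genotype taken out as well, these were -0.93 and 0.55. Across all 7 marker sums as covariates, these 2 included, the log2 fold change of Hgf ran from -0.98 to -0.59. The part of these cells in the Hgf difference was not tested.

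The genes whose pattern was most like that of Hgf over the 12 arrays were found by Pearson's r with the mean of each experiment taken out, among 15647 genes. The highest were Cftr (0.95), the chloride channel of epithelial fluid secretion, Dnah11 (0.94), a dynein of motile cilia, Brd3 (0.93), Prickle2 (0.93), of planar cell polarity, and Zswim6 (0.92). The lowest were Nr5a2 (-0.96), Rftn1 (-0.95) and Atpaf2 (-0.93), of which Nr5a2 was near the floor (mean log2 signal 6.37). Such an r follows the genotype difference that the genes share. Cftr measured 8.18 to 8.89 in wildtype and 7.41 to 8.42 in Foxf1+/- lungs, a log2 fold change of -0.53 ± 0.11 (SE; limma adjusted p = 0.0275), and Prickle2 fell by 1.02 on the log2 scale.

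With genotype and experiment both taken out, the highest were other genes, Cobl (0.97), Tubb4b (0.93) and Ryr1 (0.93). By the same measure r of Hgf with Foxf1 was 0.74 with experiment means taken out and -0.65 with genotype taken out as well. The second value rests on few arrays, as experiment A held 2 wildtype and experiment B 2 Foxf1+/- arrays. Whether the levels of Foxf1 and Hgf go together within a genotype was not tested. Between the brightest probes of the members, r with experiment means taken out was 0.04 for Hgf and Met and 0.49 for St14 and Spint1. All of these describe 12 arrays and carry no test.

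For the other members the nearest genes by the same measure, with experiment means taken out, were Zw10 (0.88), Ssx9 (0.88) and Ctnna1 (0.86) for Met, Clta (0.91), Kcnq3 (0.91) and Ubox5 (0.91) for St14, Relb (0.95), Slc2a6 (0.92) and Cxcl16 (0.90) for Spint1, and B230217C12Rik (0.92), Nfu1 (0.91) and Acot8 (0.90) for Spint2. Of these, Ssx9 (mean log2 signal 6.04), Kcnq3 (6.39), B230217C12Rik (6.40) and Nfu1 (6.54) were near the floor. At the other end, named after the values were seen, Spint1 ran opposite to the heart muscle genes Nppa (-0.98), Actc1 (-0.95) and Ankrd1 (-0.94). Nppa, the gene of atrial natriuretic peptide, measured 7.68 in wildtype replicate 6 and up to 14.89 in the other lungs, while Spint1 was highest in that lung at 12.73. Without wildtype replicate 6 the values were -0.93, -0.92 and -0.87 over 11 arrays. Spint1 had an r of -0.78 with the mesenchymal sum and 0.58 with the epithelial sum.

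**Figure D5:**
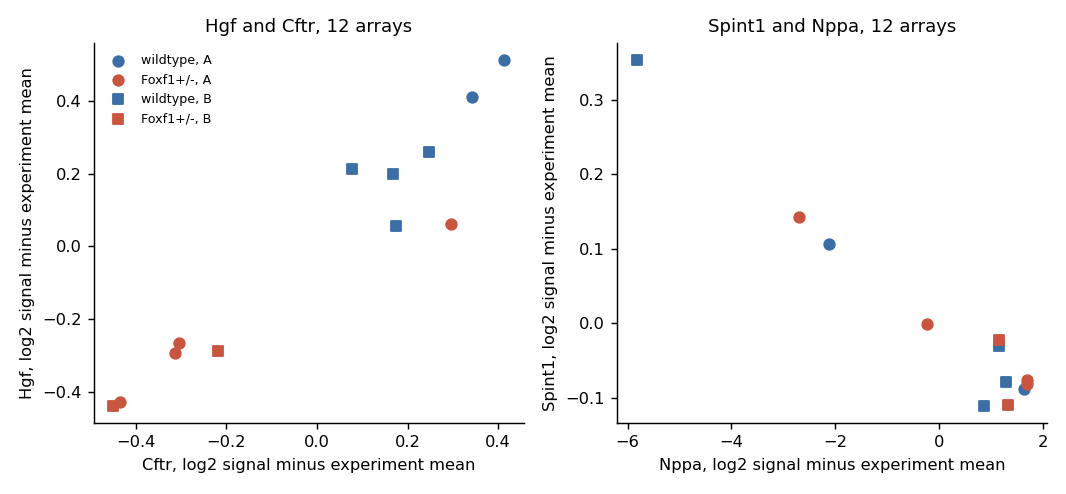
Log2 signal minus the mean of its array experiment for Hgf against Cftr (left) and Spint1 against Nppa (right), 1 point per array (blue, wildtype; red, Foxf1+/-; circles, experiment A; squares, experiment B). Hgf and Cftr rise together with r of 0.95 and separate mainly by genotype, and Spint1 and Nppa run opposite with r of -0.98, with wildtype replicate 6 at the far upper left.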

How the data were processed

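The authors deposited 2 tables of 12 Illumina MouseWG-6 v2.0 bead arrays, raw probe intensity on a linear scale with no background subtraction or normalisation, and processed log2 values that, per the methods, came from variance stabilisation and robust spline normalisation in lumi and from ComBat between 2 array experiments (no versions are given in the sources used here). Detection p-values and control probes are not in the table. Here the raw intensities were used, after 18 of 45281 probes with damaged cells were left out (6 further probes with a value under 20 were kept), and the processed values served as an alternative. Background was removed by normexp with an offset of 50, which makes fold changes of dim probes smaller, in limma (3.58.1, under R 4.3.3). After log2 and quantile normalisation, the probes with a mean over the 25th percentile of all were tested.

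The array experiments are not named in the labels and were inferred by 2-means clustering of the arrays on 3 percentiles (5, 50 and 95) of raw log2 signal (mean silhouette 0.75), so the split is an estimate. The limma fit (lmFit, eBayes) held genotype and experiment over all 12 arrays, with Benjamini-Hochberg adjustment over all probes tested and a call at an adjusted p under 0.05. The fit was tested on simulated data. Symbols are those of the platform annotation, which gave 34874 probes 1 symbol, and the brightest probe stood for a gene. No 2 arrays were copies of each other (r at most 0.995). Promoter windows and gene positions came from RefSeq (GRCm38.p6), in which all 6 genes matched by symbol. St14 had no promoter entry. Where the probes lie within their transcripts was not analysed here.

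The members and gene lists were chosen with earlier results of these data known. Named genes were all members with all probes, Foxf1, the called genes of each pathway list or else the gene with the smallest adjusted p, the brightest Hgf probe's 5 highest and 3 lowest r, its 3 highest with genotype also taken out, the 3 highest r for Met, St14, Spint1 and Spint2, and called markers. Alternatives covered background correction, normalisation, filter, input values, batch, replicate block, array weights, Xist as a covariate, the methods' t-test, probe summary and leaving out each array. The summed level of each marker list as a covariate and the replicate block without experiment were added after seeing the data.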

Additional observations from a re-analysis of the deposited data

Results flagged for a closer look

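Arrays that stood far from the rest of their genotype were looked for in 24 sets of 6 arrays (12 probes in 2 genotypes), where chance marks about 1 in 20, and 2 were found. Foxf1+/- replicate 3 measured 7.26 for Hgfac, with the next of the 6 arrays at 6.89, a gap of 0.709 of the range against a critical value of 0.625. Foxf1+/- replicate 5 measured 6.23 for the second Spint2 probe, near the floor of the arrays, with the next at 6.06 and a gap of 0.637 of the range. No probe of the array had a call for a genotype effect that differed between the 2 array experiments in limma, and 1142 had an unadjusted p under 0.05.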

How the results depend on the processing

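The brightest Hgf probe kept its lower signal in Foxf1+/- lungs under every alternative run and its call under all but 5. It was not called in experiment A alone (log2 fold change -0.69, limma adjusted p = 0.211), in experiment B alone (-0.54, 0.0963), with the mast cell sum as a covariate (-0.98, 0.166), or with the replicate number as a block beside experiment (-0.65, 0.0591). The last was the methods' t-test with a fold of at least 1.5, set here on the authors' variance-stabilised values, where its difference was -0.50. The study took folds after reversing that stabilisation, so this cut is not the study's own fold threshold. Values under the other alternatives ran from -0.87 (erythroid sum as a covariate) to -0.49 (processed values with experiment), and the mean of its 3 probes gave -0.32 (limma adjusted p = 0.00447). Without each array in turn it ran from -0.68 to -0.57, with adjusted p of 0.00107 to 0.0160.

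Member probes called numbered 2 with the authors' processed values and genotype alone, with array weights and with the epithelial sum as a covariate, where the second Hgf probe joined, 3 with the methods' t-test, where the third St14 probe joined as well, and 0 in experiment A alone, in experiment B alone, with the replicate block and experiment, with the mast cell sum, and with the t-test and a fold of at least 1.5. Over all probes the calls numbered 2582 with processed values and genotype alone, 1579 with the t-test, 227 with the fold minimum on the variance-stabilised scale, 501 without experiment in the fit, 10 in experiment A alone and 56 in experiment B alone. They ran from 405 (without Foxf1+/- replicate 6) to 1108 over single arrays left out, with 432 without wildtype replicate 1 and 436 without Foxf1+/- replicate 5. With median scaling 497 of 678 calls were higher, against 592 of 1007.

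Replicate numbers gave no sign of pairing the lungs. Same-numbered lungs correlated from -0.49 to 0.48 after group means were taken out, and from -0.28 to 0.15 with experiment taken out as well. Replicates 3 and 4 lay in different experiments and gave the negative values of the first range (-0.49 and -0.31). The replicate block with experiment gave 149 called probes. Foxf1 was not called with that block (-0.96, limma adjusted p = 0.0933), with the replicate block alone (-0.73, 0.0946), without experiment (-0.73, 0.184), in experiment A alone (-0.80, 0.174) or in experiment B alone (-1.20, 0.0695).

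Of the 7 called pathway genes, none was called in experiment A or B alone, and Hspg2 alone kept its call with the replicate block and experiment. Without experiment, Stat3, Ptprb, Timp1 and Sdc3 lost theirs, and with the replicate block alone all but Myc did. Stat3 and Sdc3 also lost theirs with the offset of 16, and Rapgef1 and Sdc3 with median scaling.

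Signs changed only in probes that were never called. Spint2 (brightest probe) turned to 0.044 without experiment and with the replicate block alone, 0.14 in experiment A, 0.13, 0.32 and 0.092 with the endothelial, mast cell and erythroid sums, and ran from -0.18 to 0.020 over arrays left out. Met turned to -0.029 with array weights, -0.032 with the mast cell sum, -0.057 with the macrophage sum and -0.042 with the erythroid sum, and ran from -0.049 to 0.074 over arrays left out. The second Spint1 probe turned to -0.019 in experiment B and -0.037 with the replicate block and experiment, and ran from -0.027 to 0.052 over arrays left out. The brightest Spint1 probe turned to 0.055 and 0.056 with the endothelial and erythroid sums, Hgfac to 0.0081 in experiment A and 0.015 with the macrophage sum, and St14 to -2.8e-04 in experiment A and to -0.071 for the mean of its probes. The cause of these changes was not tested. Without signal well above the floor, no direction can be read for 4 of the 12 probes beyond the values given.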
